A study of Mus musculus with 4 samples.

Results

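Amacrine cells are inhibitory interneurons of the inner retina, and the genes that make, pack and recover their transmitters mark their subtypes. The 10 genes described here, Gad1, Gad2, Slc32a1, Slc6a9, Chat, Slc18a3, Th, Calb2, Tfap2a and Tfap2b, were chosen by name as markers of amacrine transmitters and identity, with earlier results of these libraries known. They are 10 of the 48897 rows of the deposited count table, and all 10 are among the 17766 genes that passed the filter on low counts and were tested.

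Retinas were taken from C57BL/6 mice (C57BL/6J in the study's methods) on postnatal day 9, with the genotype given as "wide type" in the labels. At postnatal day 3 the left eyes had been injected into the vitreous with 1 μl holding 0.6 nmol of miR-124-3p antagomir, a chemically modified antisense strand against the microRNA (anti-miR-124 group), and the right eyes with the same amount of a scrambled sequence (NC group). Total RNA was sequenced with a directional kit from 2 libraries per group, made from mixed retinas of several litters. In the table an anti-miR-124 and an NC library share each number. The first such pair is named A, with the libraries NC-A and anti-A, and the other B, with NC-B and anti-B. The study's methods describe both injections for the same mice, so the groups were fellow eyes. Whether libraries that share a number came from the same mice was not stated. The main test used no block for the shared numbers, and a fit with that block is given at the end. Group and side of the body cannot be told apart, since all anti-miR-124 eyes were left eyes. The study's methods give a range of mixed retinas for each group and do not break it down by library, so the p-values measure the spread between these libraries, which may be partly technical.

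Most amacrine cells release either GABA or glycine, and a few types release a second transmitter as well. Starburst amacrine cells release acetylcholine along with GABA and compute the direction of motion, and dopaminergic amacrine cells set the retina to the light level. The members fall into roles: glutamate decarboxylases (Gad1, Gad2), the vesicular transporter of GABA and glycine (Slc32a1), the glycine transporter GlyT1 at the cell surface (Slc6a9), the enzyme and the vesicular transporter of acetylcholine (Chat, Slc18a3), the rate-limiting enzyme of dopamine synthesis (Th), the calcium-binding protein calretinin (Calb2), and AP-2 transcription factors of amacrine cells (Tfap2a, Tfap2b). Calb2 is also made by ganglion cells, and the AP-2 factors by horizontal cells.

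Crx, a transcription factor that defines photoreceptors, stood between 1566 and 1632 CPM (counts scaled by TMM to a common library size) in all 4 retina libraries. Library totals ran from 16317239 to 18726963 counts. A pair of libraries stood apart. In NC-A, 26 lens genes took 6.70% of all TPM (transcript counts scaled by gene length and to a fixed sum), against 0.0178% to 0.0240% in the other libraries. This share lowers every other TPM in NC-A. With lens genes left out of the scaling, the members summed to 848 TPM there in place of 791. The 16 microglia markers summed to 662 TPM in anti-B, and to 219 to 270 TPM elsewhere. Values of the members without these libraries are given where they bear on a result.

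Of the 10 members, none passed the test for a difference between the groups. Each was tested by edgeR's quasi-likelihood test on counts with TMM scaling, and 0 of 10 had a Benjamini-Hochberg adjusted p under 0.05. Over all tested genes the share was also 0%, with a smallest adjusted p of 0.487. No member had an unadjusted p under 0.05, against 694 genes or 3.91% of all tested. DESeq2's Wald test called 34 genes, none of them a member. With 1 library left out, the number of genes called was 0 without NC-A, 12 without anti-B, 57 without NC-B and 256 without anti-A, and none of these was a member. In bulk retina, fewer cells of a type and less RNA per cell cannot be told apart.

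The levels of the members, compared per gene length, spanned a 136-fold range. Calb2 was highest by its mean over the 4 libraries, at 271 ± 50.7 TPM (SD, n = 4), followed by Tfap2b at 210 ± 15.3 TPM. The ranges of this pair of genes overlapped, from 214 to 332 TPM and from 189 to 222 TPM, although Calb2 was the higher within each library, with ratios of 1.32 in NC-A, 1.49 in anti-A, 1.30 in NC-B and 1.03 in anti-B. Slc6a9 came next at 125 ± 14.5 TPM, apart from its neighbours on both sides.

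Gad1 (92.3 ± 8.87 TPM) and Slc32a1 (82.4 ± 6.56 TPM) had overlapping ranges, and Tfap2a lay below both at 54.4 ± 2.85 TPM. The lower part of the order held Gad2 (13.2 ± 1.45 TPM) and Slc18a3 (13.1 ± 2.23 TPM), which overlapped, then Chat (7.60 ± 0.988 TPM) and Th (2.0 ± 0.130 TPM). The genes of the rarer cholinergic and dopaminergic types were thus the lowest, together with Gad2. Of the genes with any count, 98.3% had a mean TPM below that of Calb2 and 51.2% below that of Th. The order was the same in the NC libraries alone. Without scaling by length, as CPM, 5 of 10 members kept their rank and Tfap2b led.

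**Figure D1:**
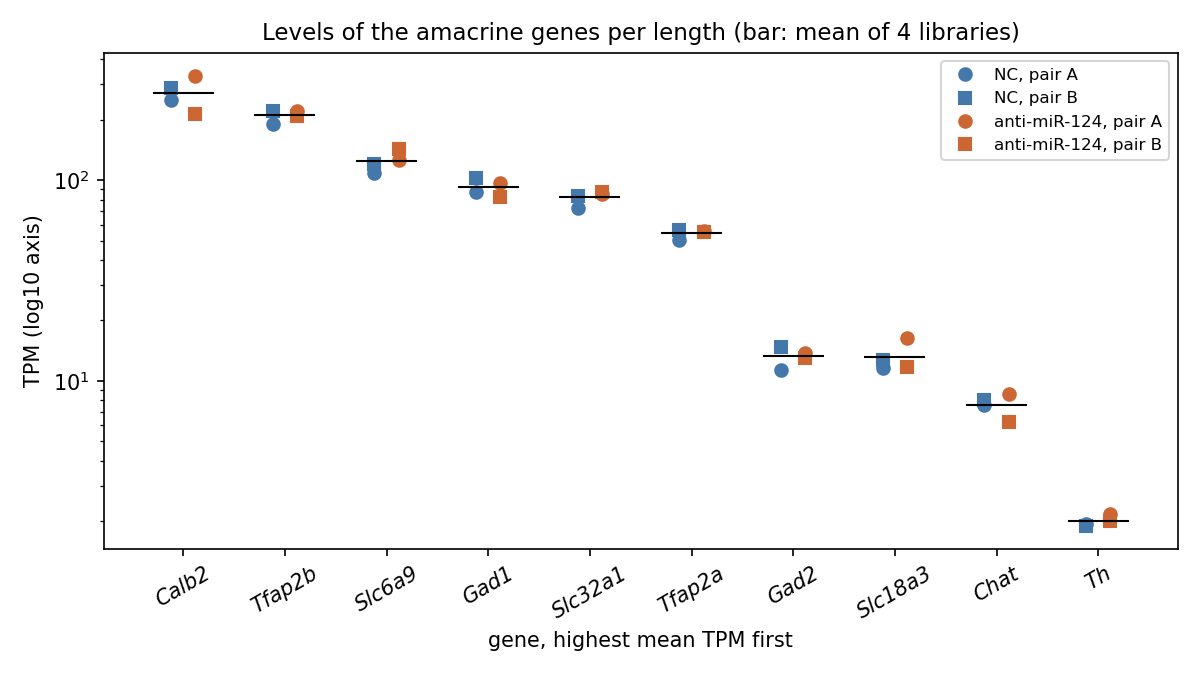
TPM of each member on a log10 axis, with genes ordered by mean TPM. Points are single libraries (blue, NC; orange, anti-miR-124; circles, pair A; squares, pair B) and bars the mean of 4 libraries, from 271 TPM for Calb2 down to 2.0 TPM for Th.

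Gad1 (chr2:70561765-70602014) encodes the decarboxylase that supplies GABA throughout the cell, and Gad2 (chr2:22621422-22693877) the form enriched at synaptic terminals. Gad1 had 148 CPM in NC-A and 153 CPM in anti-A, and 158 and 129 CPM in NC-B and anti-B. Only anti-B lay apart from the others, and the groups overlapped. The fitted log2 fold change of anti-miR-124 over NC was -0.12 (standard error 0.10, 95% interval -0.37 to 0.13, edgeR adjusted p = 0.989), and 0.0057 without anti-B.

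Gad2 had 35.3 and 39.8 CPM in NC-A and anti-A and 42.0 and 37.2 CPM in NC-B and anti-B. It was higher under anti-miR-124 in pair A, by 0.17 on the log2 scale, and lower in pair B, by a log2 ratio of -0.18. Its fitted log2 fold change was -0.0088 (standard error 0.11, 95% interval -0.26 to 0.24, edgeR adjusted p = 0.998). Per length, Gad1 stood at 7.71 and 7.08 times the level of Gad2 in NC-A and anti-A and at 6.91 and 6.34 times in NC-B and anti-B.

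Slc32a1 (chr2:158610758-158615747) loads both GABA and glycine into synaptic vesicles. Its levels were 67.3 and 70.7 CPM in NC-A and NC-B, against 73.6 and 73.8 CPM in anti-A and anti-B. The anti-miR-124 libraries were nearly equal and both lay above the NC libraries. The log2 fold change was 0.09 (standard error 0.07, 95% interval -0.07 to 0.26, edgeR adjusted p = 0.989), and the interval spans a ratio of 0.954 to 1.20. It was 0.06 without NC-A and 0.10 without anti-B. An antisense gene that overlaps Slc32a1 had 251 to 361 counts, and the strand setting of the authors' counting was not given in the sources used here, so reads of the 2 genes may not be fully separated.

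Of 7 other genes of GABA uptake and turnover, 0 were higher in both pairs, 2 were lower in both pairs and 4 were higher in pair A and lower in pair B. Over all genes tested these shares were 22.8%, 24% and 25.5%, which also stand beside the counts of each list below. Slc38a1, a glutamine transporter, had 335 and 356 CPM in NC-A and anti-A and 365 and 327 CPM in NC-B and anti-B. None of the 7 had an unadjusted p under 0.05. Their median log2 fold change was -0.02, beside 0.00066 over all genes tested.

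Slc6a9 (chr4:117835258-117869305) takes glycine back up and so lets glycinergic amacrine cells keep their transmitter. It had the largest fitted rise and the smallest p of the members, without passing the test. It stood at 125 and 126 CPM in NC-A and NC-B, and at 134 and 150 CPM in anti-A and anti-B. The NC values were almost the same and both anti-miR-124 values lay above them.

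The log2 ratio of Slc6a9 was 0.11 in pair A beside 0.26 in pair B. The fitted log2 fold change was 0.19 (standard error 0.08, 95% interval -0.01 to 0.39, edgeR adjusted p = 0.989). Without anti-B, where it was highest, the value was 0.11, and without NC-A it was 0.18. The summed TPM of 7 Muller glia markers was 2010 in NC-A, 2046 in anti-A, 2018 in NC-B and 2791 in anti-B. The sum in anti-B was carried mostly by Apoe and Vim, and the other 5 markers summed to 953, 1049, 1093 and 1057 TPM in the same order. Of those, Slc1a3 (288 TPM), Sox9 (37.0 TPM) and Aqp4 (5.48 TPM) were also highest in anti-B, while Rlbp1 and Glul were not. The sum of the microglia markers and most Muller glia markers were thus highest in the library where Slc6a9 was highest. Their part in its level was not tested. Ccdc24, which overlaps Slc6a9 on the opposite strand, had 259 to 333 counts.

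Slc6a9 and Slc32a1 shared an order of libraries by CPM and by TPM, from anti-B and anti-A down to NC-B and NC-A. Relative to Gad1, both had higher TPM ratios under anti-miR-124, without overlap. The ratio of Slc6a9 to Gad1 was 1.24 and 1.18 in NC-A and NC-B and 1.30 and 1.73 in anti-A and anti-B. For Slc32a1 to Gad1 these ratios were 0.833 and 0.822, and 0.881 and 1.06. The gap was widest in pair B for both, where Gad1 was lowest. With 2 libraries per group an exact permutation test cannot give a two-sided p below 0.333, and no other test of these ratios was run. The ratio of Slc6a9 to Slc32a1, by contrast, overlapped between groups, at 1.49 and 1.43 in NC-A and NC-B and 1.47 and 1.64 in anti-A and anti-B.

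Among 9 other genes of glycine signalling and breakdown, 2 were higher and 1 lower in both pairs, and 5 were higher in pair A and lower in pair B. Amt, a subunit of the glycine cleavage system, had 30.6 and 29.9 CPM in NC-A and NC-B and 26.1 and 26.7 CPM in anti-A and anti-B. It had the only unadjusted p under 0.05 on this list, with a log2 fold change of -0.19 (edgeR adjusted p = 0.989). Gldc, another subunit of that system, had a log2 fold change of 0.16 with the same adjusted p, so the subunits did not go the same way. The median over the list was 0.0067.

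Chat and Slc18a3 form the cholinergic gene locus, in which the whole of Slc18a3 (chr14:32462437-32464850) lies in intron 1 of the 16-exon Chat transcript (chr14:32460914-32465806, GENCODE M21, minus strand). Their start sites are 1059 bases apart. The windows from 250 bases before to 50 bases after their start sites are printed here to show this shared locus, with that of Th for comparison as the other transmitter gene of a rare subtype. All come from RefSeq for GRCm38.p6, in which 9 of the 10 members had an entry, are given 5′ to 3′ on the minus strand, and lie at chr14:32465860-32466159, chr14:32464801-32465100 and chr7:142899946-142900245. Capitals mark matches to CAGCTG (an E-box) in Chat, to GCCNNNGGC (the AP-2 motif, with overlapping matches) in Slc18a3 and to TGACGTCA (the cAMP response element) in Th.
Chat: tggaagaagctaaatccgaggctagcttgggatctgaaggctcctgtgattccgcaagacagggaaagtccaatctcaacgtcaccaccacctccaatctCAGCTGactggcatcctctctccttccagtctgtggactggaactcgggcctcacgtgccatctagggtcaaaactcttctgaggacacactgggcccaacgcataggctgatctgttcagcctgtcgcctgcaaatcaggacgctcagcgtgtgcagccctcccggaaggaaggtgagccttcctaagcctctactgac
Slc18a3: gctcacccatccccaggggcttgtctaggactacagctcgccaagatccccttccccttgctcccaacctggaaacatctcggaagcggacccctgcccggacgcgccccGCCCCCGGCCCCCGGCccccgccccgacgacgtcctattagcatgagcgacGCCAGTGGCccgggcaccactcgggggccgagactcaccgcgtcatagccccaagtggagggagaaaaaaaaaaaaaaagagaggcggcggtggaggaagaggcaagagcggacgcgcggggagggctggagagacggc
Th: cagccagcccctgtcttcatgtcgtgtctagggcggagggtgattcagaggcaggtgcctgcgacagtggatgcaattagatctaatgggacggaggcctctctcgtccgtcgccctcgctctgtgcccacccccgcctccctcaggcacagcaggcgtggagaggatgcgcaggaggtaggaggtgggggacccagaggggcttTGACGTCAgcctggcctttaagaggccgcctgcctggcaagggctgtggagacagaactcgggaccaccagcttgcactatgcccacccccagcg

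Both strands were searched, and each of these motifs reads the same on both. This E-box was found in 16.3% of all 32851 windows, the AP-2 motif in 16.6% and the cAMP response element in 1.79%. The last began at position -45 of the Th window, with the start site as 0. Of the 12 windows of the members, only that of Chat held the E-box and only that of Th the cAMP response element, while the AP-2 motif was also in the Gad2 window. TATAAA was on the opposite strand of the Gad1 window (13.6% of all windows on either strand) and TAATTA, a homeodomain motif, in a Tfap2a window (5.29%). The median GC content was 60.5% over the members' windows and 52.67% over all windows. These matches describe letters and not binding.

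Chat (chr14:32408203-32465909), which makes acetylcholine, was counted 113 and 126 times in NC-A and anti-A and 122 and 100 times in NC-B and anti-B. This is 7.02, 7.38, 6.76 and 5.30 CPM, so that the anti-miR-124 libraries lay on either side of the NC libraries. The log2 fold change of Chat was -0.12 (standard error 0.22, 95% interval -0.66 to 0.42, edgeR adjusted p = 0.989), and 0.10 without anti-B.

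Slc18a3, which packs acetylcholine into vesicles, had 9.25 and 12.1 CPM in NC-A and anti-A, and 9.25 and 8.49 CPM in NC-B and anti-B. The NC libraries were equal to 3 digits and the anti-miR-124 libraries again lay on either side. Its log2 fold change was 0.15 (standard error 0.20, 95% interval -0.34 to 0.64, edgeR adjusted p = 0.989), and -0.12 without anti-A. By CPM the order of the libraries was that of Chat, from anti-A at the top to anti-B at the bottom, while by TPM the orders differed. The TPM ratio of Slc18a3 to Chat was 1.53 and 1.59 in NC-A and NC-B and 1.90 and 1.86 in anti-A and anti-B, without overlap. An exact permutation test of so few libraries cannot give a two-sided p below 0.333. The ratio also rests on few counts, 100 to 126 for Chat and 149 to 206 for Slc18a3. Since the genes share a strand and Slc18a3 lies within an intron of Chat, intronic Chat reads may enter its count.

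On a list of 10 further starburst and cholinergic genes, 1 was higher and 3 were lower in both pairs, and 6 were higher in pair A and lower in pair B. Sox2, a transcription factor of starburst cells that Muller glia also express, was among the lower, with 40.0 and 39.5 CPM in NC-A and NC-B and 37.8 and 35.7 CPM in anti-A and anti-B. Isl1, a LIM homeodomain factor of starburst, ganglion and bipolar cells, had a log2 ratio of 0.10 in pair A, with -0.25 in pair B. None of the 10 had an unadjusted p under 0.05. The list's median was 0.17 in pair A but -0.20 in pair B, and so went the way of Chat in each pair. This was not particular to cholinergic genes. The medians of the members (0.11 and -0.10) and of the GABA (0.09 and -0.14) and glycine (0.14 and -0.14) lists went the same way. So did those of the dopamine (0.10 and -0.08) and ganglion cell (0.43 and -0.47) lists. The photoreceptor and bipolar list (0.05 and -0.15) did as well. So did the lists of amacrine transcription factors (0.08 and -0.0014) and of peptides and other subtype markers (0.17 and -0.07). Those of the horizontal cell, Muller glia, microglia and lens lists did not.

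Th (chr7:142892776-142899966) rests on few counts, with 18 and 20 in NC-A and anti-A and 18 and 20 in NC-B and anti-B. An exact 95% Poisson interval for 18 counts runs from 10.7 to 28.4, and for 20 counts from 12.2 to 30.9, for counting error only. As CPM the values were 1.12 and 1.00 in NC-A and NC-B and 1.17 and 1.06 in anti-A and anti-B, which overlapped. The log2 fold change was 0.08 (standard error 0.35), and its 95% interval of -0.77 to 0.93 spans ratios of 0.585 to 1.91 (edgeR adjusted p = 0.995). Changes of Th within that range lie inside the interval, and no detection limit was computed.

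Of 10 other genes of dopamine synthesis, transport and reception, 8 were tested. Of these, 2 were higher and 2 lower in both pairs, 3 were higher in pair A and lower in pair B, and none had an unadjusted p under 0.05. Qdpr, which recycles the cofactor of Th, had 53.6 and 55.4 CPM in NC-A and NC-B and 58.9 and 56.3 CPM in anti-A and anti-B. The median log2 fold change of the list was 0.04.

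**Figure D2:**
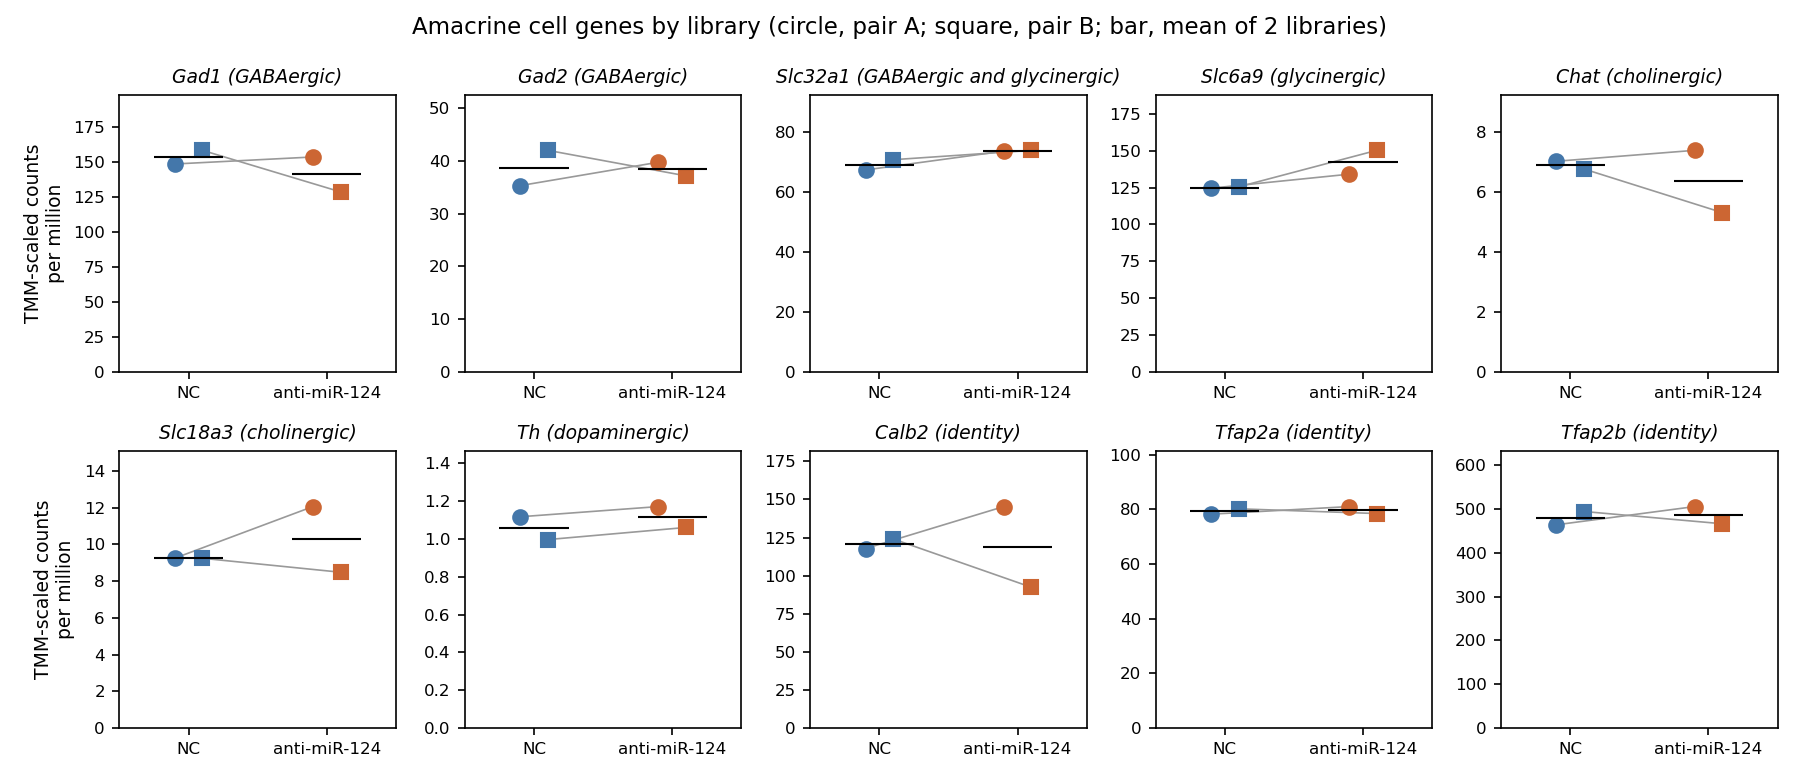
TMM-scaled CPM of each member, from 0, for the NC and anti-miR-124 libraries (circles, pair A; squares, pair B; grey lines join a pair; bars, mean of 2 libraries). The groups are apart only for Slc32a1 and Slc6a9, and for Calb2 the anti-miR-124 libraries lie at 145 and 92.4 CPM on either side of the NC libraries.

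Calb2 (chr8:110142538-110168206) showed the largest disagreement between the pairs. It had 118 and 145 CPM in NC-A and anti-A, and 124 and 92.4 CPM in NC-B and anti-B. The NC libraries were close, and the anti-miR-124 libraries marked both the highest and the lowest value. In pair A the log2 ratio was 0.30, with a 95% counting interval of 0.22 to 0.39, and in pair B it was -0.43, with an interval of -0.52 to -0.33. The opposite directions are thus larger than counting error.

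The fitted log2 fold change of Calb2 was -0.03 (standard error 0.19, 95% interval -0.49 to 0.44, edgeR adjusted p = 0.997). It became 0.27 without anti-B and -0.39 without anti-A. The gap between its pair ratios was 0.73, and 14.6% of all tested genes had a gap at least as wide, with a median of 0.22.

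Markers of ganglion cells, which also make calretinin, moved between the libraries like Calb2. Of 12 such markers, all tested and none at 0, 11 were higher in pair A and lower in pair B, with medians of 0.43 and -0.47. They summed to 1355 and 1718 TPM in NC-A and NC-B and to 1969 and 1271 TPM in anti-A and anti-B. With lens genes left out of the scaling, the sum in NC-A was 1452 TPM, and that in anti-B was 1272 TPM. From highest to lowest, by CPM and by TPM, the order of the libraries for Calb2 was anti-A, NC-B, NC-A and anti-B.

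By CPM, the same order held for 8 of the 12 ganglion markers and for no other member, and by TPM for 9 of the 12 and for Chat. These TPM kept lens genes in the scaling, which lowers NC-A. By CPM, Chat (7.02 and 6.76) and the ganglion marker Pou4f3 (2.36 and 2.22) were higher in NC-A than in NC-B. Nefl, the light neurofilament of ganglion cell axons, had 297 CPM in NC-A, 427 in anti-A, 359 in NC-B and 262 in anti-B. The part of ganglion cell RNA in the level of Calb2 was not tested.

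**Figure D3:**
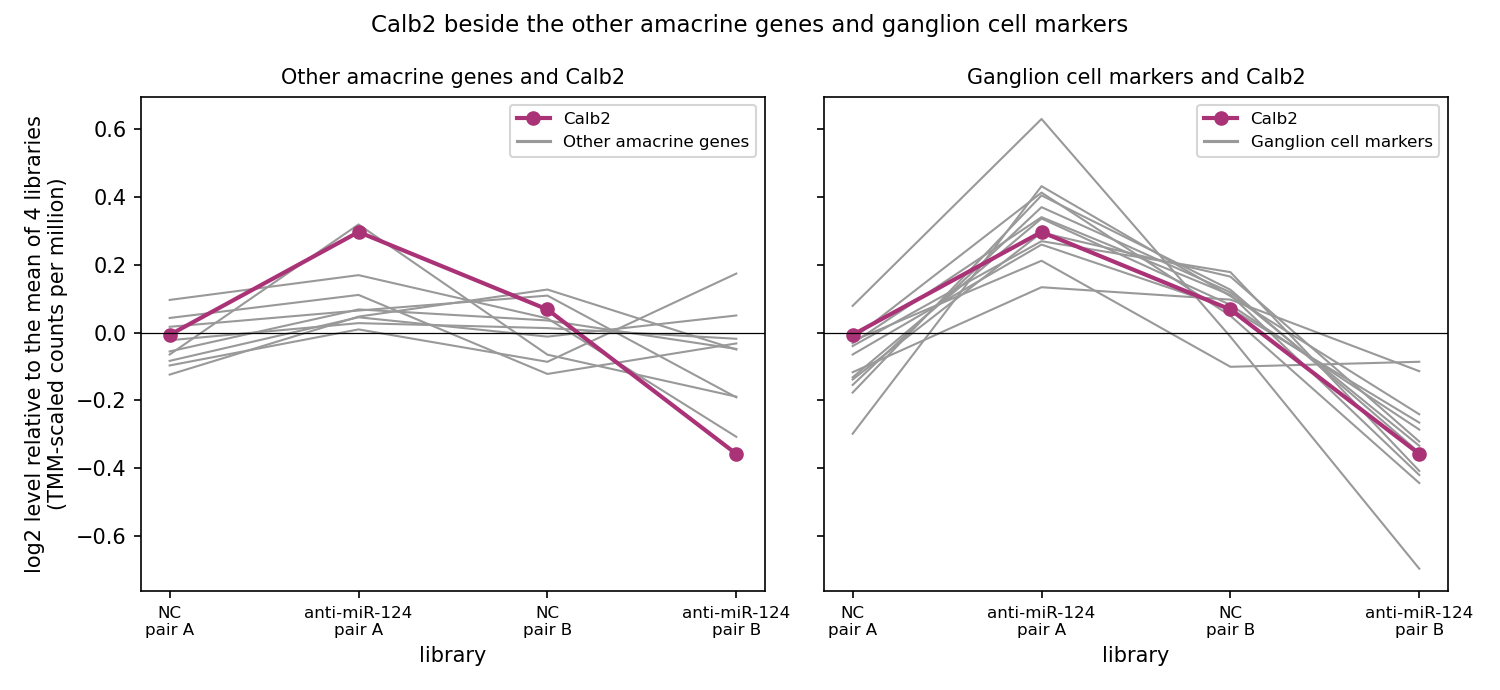
Log2 level in each library relative to the mean of the 4 libraries, for Calb2 (purple) beside the other 9 members (left, grey) and 12 ganglion cell markers (right, grey). Calb2 rises to anti-A and falls to anti-B as most ganglion markers do, while the other members differ less between the pairs.

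Tfap2a and Tfap2b, the AP-2 factors, had with Slc32a1 the smallest standard errors of the members. Tfap2a (chr13:40715302-40738237) had 78.2 and 81.0 CPM in NC-A and anti-A and 80.1 and 78.4 CPM in NC-B and anti-B. All 4 values lay close together and the groups overlapped. Its log2 fold change was 0.0094 (standard error 0.07, 95% interval -0.15 to 0.17, edgeR adjusted p = 0.997), an interval that spans ratios of 0.902 to 1.12.

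Tfap2b (chr1:19208914-19238845) had 464 CPM in NC-A, 506 in anti-A, 495 in NC-B and 467 in anti-B. By CPM its order of libraries was that of Tfap2a, highest in anti-A and lowest in NC-A, while by TPM the orders differed. The log2 fold change was 0.02 (standard error 0.07, 95% interval -0.15 to 0.19, edgeR adjusted p = 0.989), or ratios of 0.903 to 1.14. Changes of these factors beyond those limits are outside the intervals. The TPM ratio of Tfap2b to Tfap2a stayed between 3.77 and 3.97 in all 4 libraries.

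Of 20 other transcription factors of amacrine fate and subtypes, 19 were tested. Of these, 4 were higher and 1 was lower in both pairs, while 9 were higher in pair A and lower in pair B. Pax6, which amacrine cells keep into adulthood, had 332 and 340 CPM in NC-A and NC-B and 338 and 320 CPM in anti-A and anti-B. Lhx9, a LIM homeodomain factor of an amacrine subset, had the only unadjusted p under 0.05, with 17.3 and 19.4 CPM in NC-A and NC-B and 24.0 and 21.5 CPM in anti-A and anti-B (log2 fold change 0.31, edgeR adjusted p = 0.989).

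Of 19 peptides and other subtype markers, 18 were tested, and 6 were higher, 3 lower in both pairs and 7 higher in pair A and lower in pair B. C1ql2, which encodes a secreted C1q-like protein, had 34.0 and 33.4 CPM in NC-A and NC-B and 40.3 and 41.4 CPM in anti-A and anti-B, and its log2 fold change was 0.28 (standard error 0.08, edgeR adjusted p = 0.989). Cartpt, a neuropeptide precursor, had 17.1 and 15.9 CPM in NC-A and NC-B and 18.6 and 22.5 CPM in anti-A and anti-B, a log2 fold change of 0.32 with the same adjusted p. These were the 2 genes of the list with an unadjusted p under 0.05.

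Taking the pairs side by side, all 10 members were higher under anti-miR-124 in pair A, and 7 of them were lower in pair B. These were Gad1, Gad2, Chat, Slc18a3, Calb2, Tfap2a and Tfap2b, and among all tested genes 25.5% went this way. Slc32a1, Slc6a9 and Th were higher in both pairs, which is 3 of 10 members against 22.8% of all genes. No member was lower in both pairs, against 24% of all genes. These 3 counts were the same with each scaling tried, TPM included.

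The groups did not overlap, with anti-miR-124 higher, for 2 members (Slc32a1 and Slc6a9), against 16.5% of all genes. No member lay lower without overlap, against 16.8%. By TPM, Th joined the former. Its TPM in NC-A was lowered by the lens share, and by CPM Th was higher in NC-A (1.12) than in anti-B (1.06). The median log2 fold change of the members was 0.015, and it became -0.015 without NC-A, -0.049 without anti-A, 0.047 without NC-B and 0.10 without anti-B. In pair A the median of their ratios was 0.11, beside -0.0092 over all genes, and in pair B it was -0.10, beside 0.0031.

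**Figure D4:**
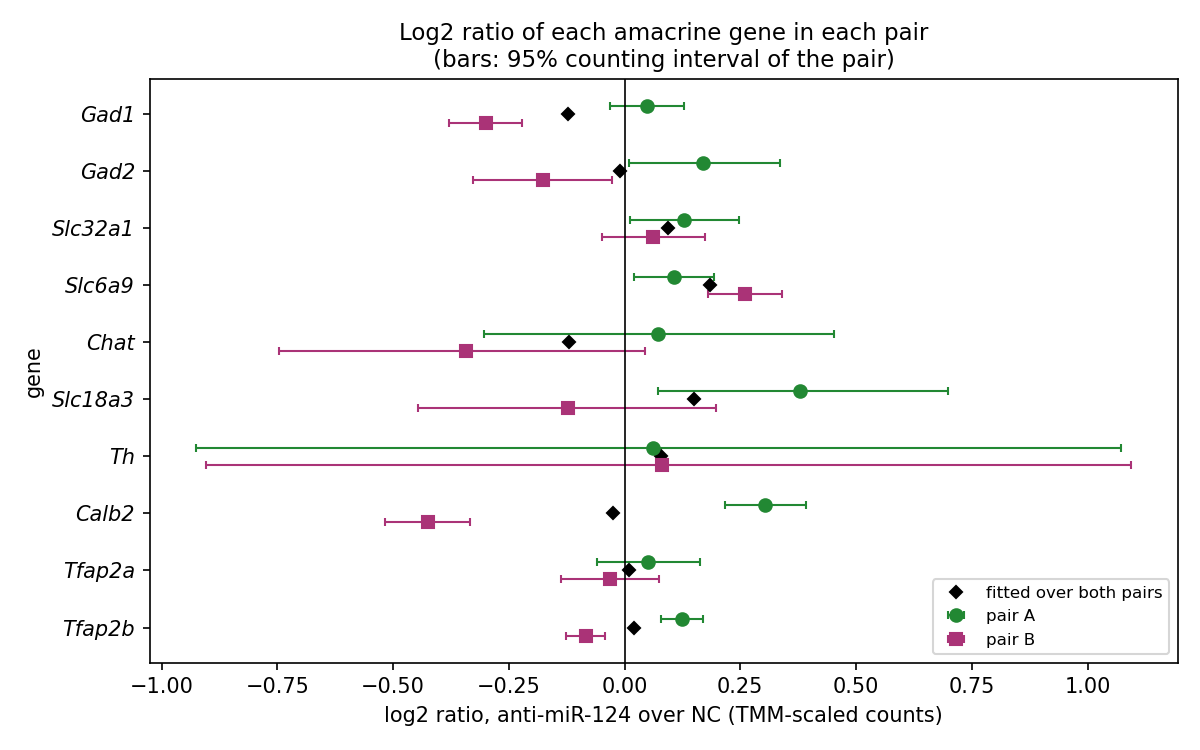
Log2 ratio of anti-miR-124 over NC for each member in pair A (green circles) and pair B (purple squares), with 95% counting intervals, and the value fitted over both pairs (black diamonds). All circles lie right of 0 and 7 of the 10 squares left of it, with Slc32a1, Slc6a9 and Th right of 0 in both pairs.

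Other cell types were followed by lists of their markers, none at 0 in every library. Over all genes tested, 22.8% were higher and 24% lower in both pairs. Of 8 horizontal cell markers, 5 were higher in both pairs and 2 lower, and the list had a median of 0.16 (log2 fold change). Onecut2 (0.23) and Lhx1 (0.44), transcription factors of horizontal cells, had unadjusted p under 0.05, while Tfap2a and Tfap2b, which these cells share, did not. An unadjusted p under 0.05 was also found for 3 of 12 photoreceptor and bipolar, 1 of 7 Muller glia and 3 of 16 microglia markers. For lens markers the count was 20 of 21 tested and for ganglion cell markers 0 of 12, against 3.91% of all genes tested. Of 12 photoreceptor and bipolar markers, 2 were higher and 3 lower in both pairs, while of 7 Muller glia markers 1 was higher and 1 lower. The rest of both lists went opposite ways in the pairs. Of 16 microglia markers 6 were higher in both pairs, with a median of -0.09 in pair A beside 1.60 in pair B. Of 21 tested lens markers 5 were lower in both. The median of the lens list was -8.45 in pair A, which holds the lens-rich NC-A, and 0.25 in pair B. No gene of these lists had an adjusted p under 0.05 by edgeR's quasi-likelihood test.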

How the data were processed

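Bulk RNA-Seq libraries of mouse retina were analysed, 2 per group. What the authors deposited are raw counts of reads on each gene, with gene lengths. The submitters' processing notes list HISAT2 and mm9, but 99.8% of 36837 symbols matched to RefSeq overlapped their GRCm38.p6 position, and positions here are the deposited ones. The counting tool was not given in the sources used here. The 4 RPKM columns were not used. Group came from the eye in each column name and pairing from the number shared by 2 columns, and deviations of same-numbered libraries had a correlation of -0.16 across genes. No libraries were duplicates.

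Library totals were 16317239 to 18726963 counts, so genes with few counts have a large counting error. Counts were tested with edgeR 4.0.16 in R 4.3.3 (quasi-likelihood, TMM, filter on low counts, two-sided, Benjamini-Hochberg over 17766 genes, threshold 0.05). The script was tested on simulated data. DESeq2 1.42.0 was an alternative, beside other scalings, filters and designs and leaving out each library. Pair ratios used TMM-scaled counts with a prior count of 2, and TPM came from counts and lengths. Counting intervals of pair ratios are exact conditional binomial intervals and cover counting error only. Python 3.11.15 was used for other steps.

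The members and the 12 further gene lists were chosen with earlier results of these data known. Genes named from these lists are among the 3 with the highest TPM in NC libraries and at most 3 with an unadjusted p under 0.05, smallest first. Calb2 was set beside the ganglion cell list after its values were seen. The mature miR-124-3p sequence was not used here.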

Additional observations from a re-analysis of the deposited data

How the results depend on the processing

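The number of genes with an adjusted p under 0.05, 0 by edgeR's quasi-likelihood test (694 at an unadjusted p under 0.05), was 379 without the filter on low counts, 34 by DESeq2's Wald test, and between 0 and 256 when each library was left out in turn. With the replicate block of the shared numbers it was 0, with 376 genes at an unadjusted p under 0.05, and with crossed numbers, added after the data were seen, it was 160. The cause of these differences was not tested. No member was called under these alternatives, the smallest adjusted p being 0.112, and 0.465 with crossed numbers. Of 120 member values, those with crossed numbers not counted, 108 kept their direction, and the 12 that did not all came from leaving out a library. Leaving out each library, the log2 fold change ran from -0.26 to 0.0057 for Gad1, -0.13 to 0.12 for Gad2, -0.38 to 0.10 for Chat, -0.12 to 0.39 for Slc18a3, -0.0036 to 0.16 for Th, -0.39 to 0.27 for Calb2, -0.014 to 0.037 for Tfap2a and -0.040 to 0.082 for Tfap2b, while Slc32a1 (0.06 to 0.13) and Slc6a9 (0.11 to 0.26) kept their sign. The replicate block changed no call and no direction of a member. By CPM in place of TPM, 5 members kept their rank. Th, with 18 to 20 counts, had the largest standard error of the members.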
